A study of Homo sapiens with 3 samples.

Results

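The genes described here encode glycosyltransferases that build O-linked and N-linked glycans, together with the RNA genes and pseudogenes whose symbols begin in the same way. Members were taken by symbol from the platform's annotation, as genes starting with GALNT, B3GNT, B3GALT, B4GALT, ST3GAL, ST6GAL, MGAT, GCNT, GXYLT, POMT, POMGNT or POGLUT, or with FUT or ALG and a digit. This gave 36 genes among the 14884 named ones, of which 31 are protein coding, 3 are long non-coding RNAs and 2 are pseudogenes. The cells were A549, a long-established line from a human lung cancer, taken 48 h after transfection with siTAZ (siRNA to TAZ, the product of WWTR1), siYAP (siRNA to YAP, the product of YAP1) or the control siRNA siNC. Each group was 1 Affymetrix array from 500 ng of total RNA, so no value has an error, no difference was tested, and a difference cannot be set against the spread between cultures. The labels do not give the sequence or the number of the siRNAs. Lipofectamine RNAiMAX was used on the cells of all 3 groups. The series asked what genes TAZ and YAP, a pair of related transcriptional co-activators of the Hippo pathway, regulate in these cells.

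Mucin-type O-glycosylation starts in the Golgi, where a polypeptide GalNAc-transferase of the GALNT family links N-acetylgalactosamine to a serine or threonine. The many family members differ in the peptides they prefer, and several prefer peptides that already carry a sugar. Other O-glycans start in the endoplasmic reticulum. The POGLUT enzymes place O-glucose on epidermal growth factor-like repeats such as those of Notch receptors, and the GXYLT enzymes add xylose to the glucose that POGLUT1 places. The POMT enzymes place O-mannose on proteins such as dystroglycan. N-glycans are first assembled on the lipid dolichol by the ALG enzymes, and branched later in the Golgi by the MGAT enzymes.

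The set as measured was mainly one of O-glycan initiation. The RefSeq gene table (GRCh38.p14) holds 100 protein-coding genes that follow the symbol rule, and 69 of them have no named probe set and were not analysed here. The GALNT family was nearly complete, with 19 of 20 coding genes (all but GALNT4), as were GXYLT (2 of 2), POGLUT (3 of 3) and POMT (2 of 2). By contrast, 0 of 9 MGAT, 0 of 8 B3GNT, 0 of 6 B3GALT, 0 of 6 ST3GAL, 0 of 7 B4GALT, 0 of 8 ST6GAL and 0 of 4 GCNT coding genes had a value. The N-glycan side of the set rests on ALG13, ALG14 and ALG1L2 and on the pseudogenes MGAT4EP and MGAT4FP.

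The sequences below are the 250 bases before the RefSeq start of 4 members (build GRCh38.p14), read 5′ to 3′ in the direction of the gene. GALNT1, GXYLT1 and GXYLT2 are shown because they were the members at least 1.5-fold apart between arrays. GALNT11 is shown as an example of a window that held the motif that was searched for. The windows of ALG13 and POMGNT2, which also held it, are not printed. Capitals mark that motif.
GALNT1 (chr18:35580672-35580921, plus strand): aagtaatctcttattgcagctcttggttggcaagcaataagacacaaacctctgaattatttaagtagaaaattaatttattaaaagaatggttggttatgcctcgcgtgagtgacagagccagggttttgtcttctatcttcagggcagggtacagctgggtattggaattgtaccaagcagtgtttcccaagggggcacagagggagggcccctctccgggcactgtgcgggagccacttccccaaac
GXYLT1 (chr12:42144875-42145124, minus strand): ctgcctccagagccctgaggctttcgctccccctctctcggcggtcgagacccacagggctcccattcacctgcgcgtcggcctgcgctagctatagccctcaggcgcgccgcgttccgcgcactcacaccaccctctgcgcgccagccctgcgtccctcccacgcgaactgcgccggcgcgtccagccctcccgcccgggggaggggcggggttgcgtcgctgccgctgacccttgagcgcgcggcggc
GXYLT2 (chr3:72887796-72888045, plus strand): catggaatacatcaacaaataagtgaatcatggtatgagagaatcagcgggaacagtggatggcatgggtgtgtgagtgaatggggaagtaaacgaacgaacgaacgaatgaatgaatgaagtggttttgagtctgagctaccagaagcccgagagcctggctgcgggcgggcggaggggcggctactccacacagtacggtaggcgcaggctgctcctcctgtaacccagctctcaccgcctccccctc
GALNT11 (chr7:152074787-152075036, plus strand): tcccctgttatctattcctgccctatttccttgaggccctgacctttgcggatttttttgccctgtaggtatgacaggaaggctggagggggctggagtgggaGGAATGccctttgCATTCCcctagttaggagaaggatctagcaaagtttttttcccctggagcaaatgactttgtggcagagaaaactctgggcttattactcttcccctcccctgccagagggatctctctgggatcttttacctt

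The motif was the core of the TEAD site, the DNA element through which YAP and TAZ mostly act, written GGAATG on one strand and CATTCC on the other. GALNT11 held it in both orientations, with first bases 147 and 134 before the start. ALG13 and POMGNT2 held it at 197 and 120 bases before a start. It was in 3 of 36 windows of the 30 members with an entry, against 10.5% of the windows of 22199 protein-coding starts. The windows of GALNT1, GXYLT1 and GXYLT2 did not contain these letters, nor did those of the 2 other GALNT1 starts. The AP-1 motif (TGACTCA, or TGAGTCA on the other strand) was in 0 of the 36 windows and in 3.45% of the coding windows. GXYLT1 and GXYLT2, a pair of paralogues, differed in composition. The GXYLT1 window was 74.4% G or C with 33 CG dinucleotides, and the GXYLT2 window 54.8% with 13. For GALNT1 the most upstream of 3 starts is printed, at 47.2% G or C, while the windows of its other starts were at 82.4% and 87.2%. Which start A549 cells use was not measured.

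Levels are RMA values on a log2 scale, with the brightest probe set standing for each gene, and a difference is the log2 level of one array minus that of another. The arrays had medians of 4.26 (siTAZ), 4.27 (siYAP) and 4.28 (siNC) over 53617 probe sets. WWTR1 was 5.81 on the siTAZ array and 6.50 on both the siYAP and siNC arrays, 1.61-fold lower with siTAZ. YAP1 was 8.24 with siTAZ, 6.87 with siYAP and 8.45 with siNC, 2.99-fold lower with siYAP. The epithelial markers EPCAM, KRT7, KRT8, KRT18 and KRT19 were all above the filter described next, and the other 4 of the 9 epithelial and A549 markers had no named probe set. Of the markers of other cell types, 2 of 5 leukocyte, 3 of 4 endothelial and 3 of 7 fibroblast genes were named. The filter kept 2 of the leukocyte, 1 of the endothelial and 2 of the fibroblast genes. PECAM1, KDR and DCN were under it, and VWF was just above it at 4.42 on all 3 arrays. The other kept genes were CD68 at 8.43, CD14 at 4.49, LUM at 7.45 and THY1 at 5.22 on the siNC array. On that array EPCAM was 8.23, KRT7 6.51, KRT8 6.50, KRT18 11.56 and KRT19 6.44. The summed log2 levels of the named genes were 13.5, 13.6 and 12.9 for leukocytes, 12.2, 12.1 and 11.9 for endothelium and 15.58, 15.55 and 15.05 for fibroblasts on the siTAZ, siYAP and siNC arrays. Marker genes did not move together. The leukocyte gene CD68 (differences of 0.57 with siTAZ and 0.59 with siYAP from siNC) and the fibroblast gene LUM (0.69 and 0.66) were higher on both knockdown arrays, while CD14 was at 0 and 0.06, THY1 at -0.16 on both and DCN identical on the 3 arrays. The epithelial keratin gene KRT7 was at -0.42 with siTAZ and identical to siNC with siYAP. The part of these markers in the results below was not tested.

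A gene was kept when its mean over the 3 arrays was at or above the median of all probe sets, 4.27. This kept 29 members, 28 of them coding, among 10768 kept genes. The 7 members under the filter were GALNT3, GALNTL5, GALNTL6, MGAT4FP, GALNT9-AS1, B3GALT5-AS1 and ST3GAL6-AS1. Each of these had the same value on all 3 arrays. GALNT3, whose enzyme glycosylates the phosphate-regulating hormone FGF23, was at 3.18. The fucosyltransferase gene FUT2 was just inside the filter with a mean of 4.28, and passed through its siTAZ level alone (4.40 with siTAZ, 4.24 with siYAP and 4.21 with siNC). ALG1L2 had a siYAP level of 4.08, itself under the filter, and would not have passed without its siNC level of 4.63. Counting FUT2 as higher with siTAZ, and ALG1L2 as lower than siNC, thus leans on the array that let the gene pass.

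**Figure D1:**
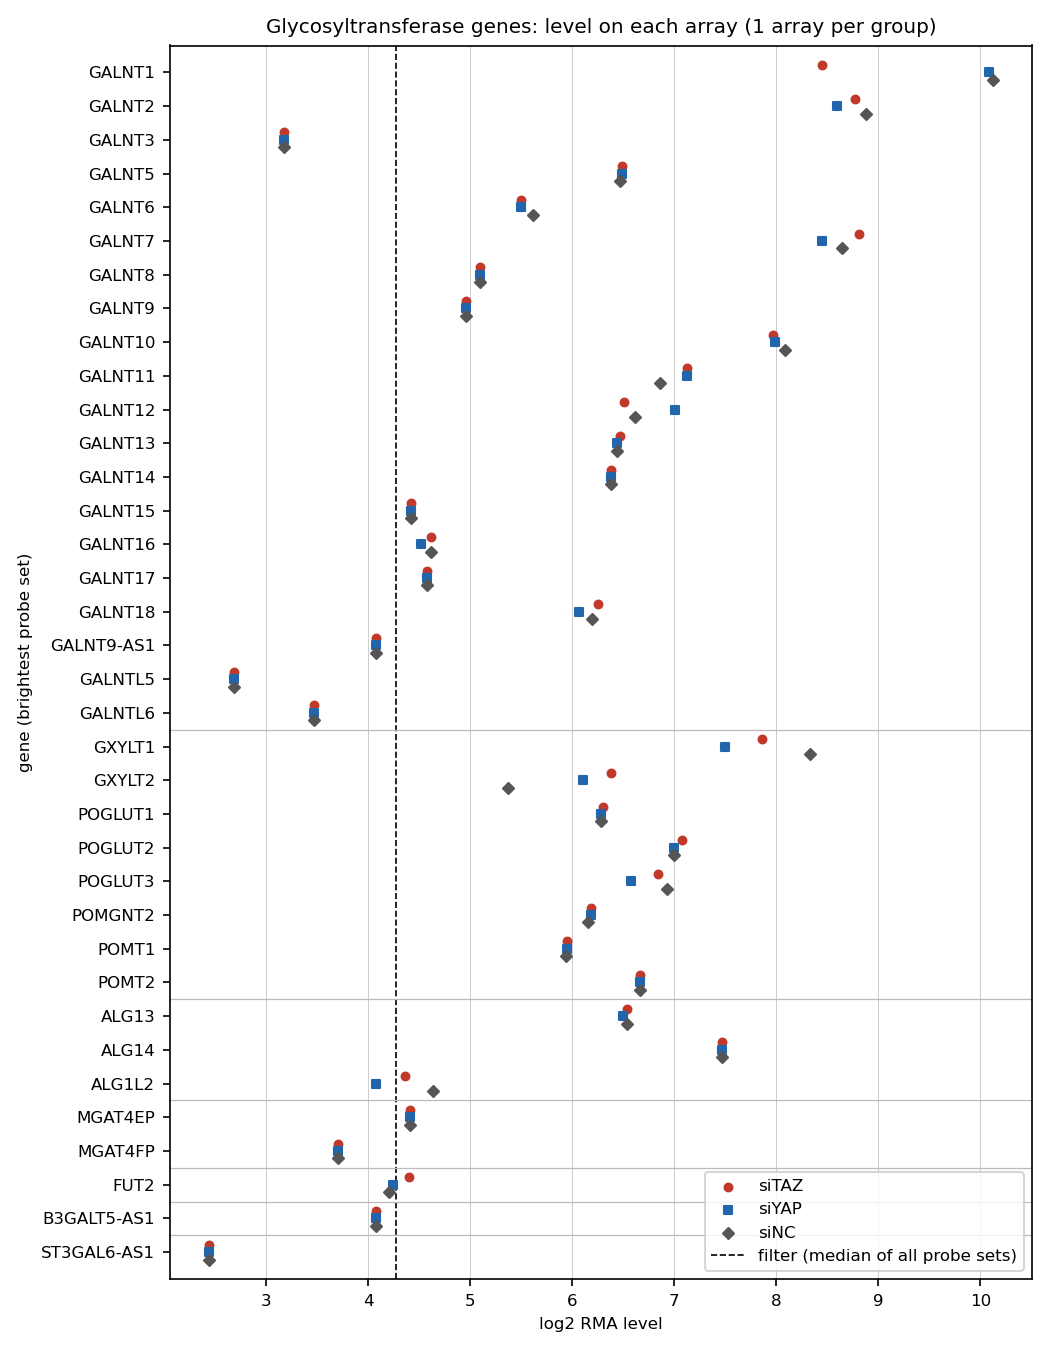
Log2 RMA level (x axis) of the 36 genes (y axis, brightest probe set) on the siTAZ (circle), siYAP (square) and siNC (diamond) arrays, 1 array per group, with grey lines between role groups and a dashed line at the filter of 4.27. The siTAZ point of GALNT1 lies at 8.45, far left of its siYAP (10.09) and siNC (10.12) points, while most genes have 3 points close together; levels of different genes come from different probes and are not compared.

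GALNT1 stood out in the GALNT family. Its enzyme is a widely expressed initiator of mucin-type O-glycans. The level was 8.45 on the siTAZ array, 10.09 on the siYAP array and 10.12 on the siNC array. Only the siTAZ array was low, and siYAP minus siNC was -0.03. This was 3.18-fold lower with siTAZ, or 31.4% of the siNC level, against 97.7% with siYAP. Among the 10768 kept genes GALNT1 ranked 3 from the lowest in siTAZ minus siNC, and 1812 from the lowest in siYAP minus siNC. Set directly against each other, the siYAP array was 3.11-fold above the siTAZ array for GALNT1, rank 2 from the highest. GALNT1 had 1 named probe set, so no second probe set checks these values.

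The 15 other kept GALNT genes lay between -0.12 and 0.26 in siTAZ minus siNC, with 4 lower, 5 higher and 6 identical to siNC. In siYAP minus siNC they lay between -0.29 and 0.39, with 6 lower, 3 higher and 6 identical. None of the 15 reached 1.5-fold in either, as was so for nearly all kept genes. Of these, 1.02% were at least 1.5-fold lower and 0.762% higher with siTAZ, and 0.381% and 0.52% with siYAP. Values identical to siNC made up 48.5% of all kept genes with siTAZ and 51.3% with siYAP. GALNT12, a family member best known from the digestive tract, had 6.51 with siTAZ, 7.01 with siYAP and 6.61 with siNC. Its siYAP array was the high one, 1.31-fold above siNC, and siYAP lay 0.50 above siTAZ on the log2 scale. GALNT2, another broad initiator, had 8.78 with siTAZ, 8.59 with siYAP and 8.88 with siNC, lower on both knockdown arrays with differences of -0.11 and -0.29. Its second, dimmer probe set had a difference of -0.03 on both. GALNT7, which prefers peptides that already carry GalNAc, lay on opposite sides of siNC, with 8.81 with siTAZ, 8.45 with siYAP and 8.65 with siNC. GALNT10, with the same preference, had 7.97 with siTAZ, 7.98 with siYAP and 8.09 with siNC. GALNT11, known for glycosylating NOTCH1, had 7.12 on both knockdown arrays and 6.86 with siNC, 1.20-fold higher on each. GALNT6 was 5.50 on both knockdown arrays and 5.62 with siNC. GALNT18 had 6.25 with siTAZ, 6.07 with siYAP and 6.19 with siNC. GALNT5, GALNT13 and GALNT16 stayed within 0.1 of siNC on both knockdown arrays. GALNT8, GALNT9, GALNT14, GALNT15 and GALNT17 had 1 value on all 3 arrays.

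The xylosyltransferase genes GXYLT1 and GXYLT2, whose enzymes add the same sugar to O-glucose, lay on opposite sides of the control. GXYLT2 was 6.38 on the siTAZ array, 6.10 on the siYAP array and 5.37 on the siNC array. Both knockdown arrays were high, 2.01-fold above siNC with siTAZ and 1.66-fold with siYAP, at ranks 8 and 23 from the highest of the 10768 kept genes. GXYLT1 was 7.86 with siTAZ, 7.50 with siYAP and 8.33 with siNC. Here both knockdown arrays were low, at 72.4% of the siNC level with siTAZ and 56.1% with siYAP. GXYLT1 was 1.38-fold lower with siTAZ, under the 1.5-fold threshold, and 1.78-fold lower with siYAP, at rank 19 from the lowest. For both genes the siYAP level lay below the siTAZ level, with differences of -0.27 for GXYLT2 and -0.37 for GXYLT1. These 2 comparisons use the same siNC array, so a high or low siNC value alone would move both the same way. The GXYLT2 difference with siTAZ (1.005) sat at the 2-fold line, and it was 0.98 when each difference was shifted to a median of 0 among genes that differ.

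The POGLUT genes showed smaller differences than the GXYLT pair. POGLUT1, which places the O-glucose that GXYLT extends, was 6.30 with siTAZ and 6.28 on the other 2 arrays. POGLUT2 and POGLUT3 place O-glucose at another site of such repeats. POGLUT2 was 7.07 with siTAZ and 7.001 on both others. POGLUT3 was 6.84 with siTAZ, 6.57 with siYAP and 6.93 with siNC, low on the siYAP array with a difference of -0.36. The set also holds 3 genes of O-mannose glycans. POMT1 and POMT2 encode the enzyme pair that places O-mannose, and POMGNT2 adds N-acetylglucosamine to it. All 3 had equal levels on the siTAZ and siYAP arrays, within 0.03 of siNC. Such ties between the siTAZ and siYAP arrays were common, at 53.9% of all kept genes.

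Of the N-glycan precursor genes, ALG14, whose product anchors ALG13 to the membrane to add the second sugar of the dolichol-linked chain, was 7.46 on every array. ALG13 was 6.54 with siTAZ, 6.49 with siYAP and 6.54 with siNC. ALG1L2, an ALG1-like gene, was 4.36 with siTAZ, 4.08 with siYAP and 4.63 with siNC. It lay just outside the 1.5-fold threshold with siYAP (1.47-fold lower), at levels close to the filter, which it passed only through its siNC level. Whether its probes also take signal from ALG1 and its other copies was not tested. FUT2, which makes the H antigen in secretions, was 0.19 higher with siTAZ and 0.04 higher with siYAP. MGAT4EP was 4.41 on every array.

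**Figure D2:**
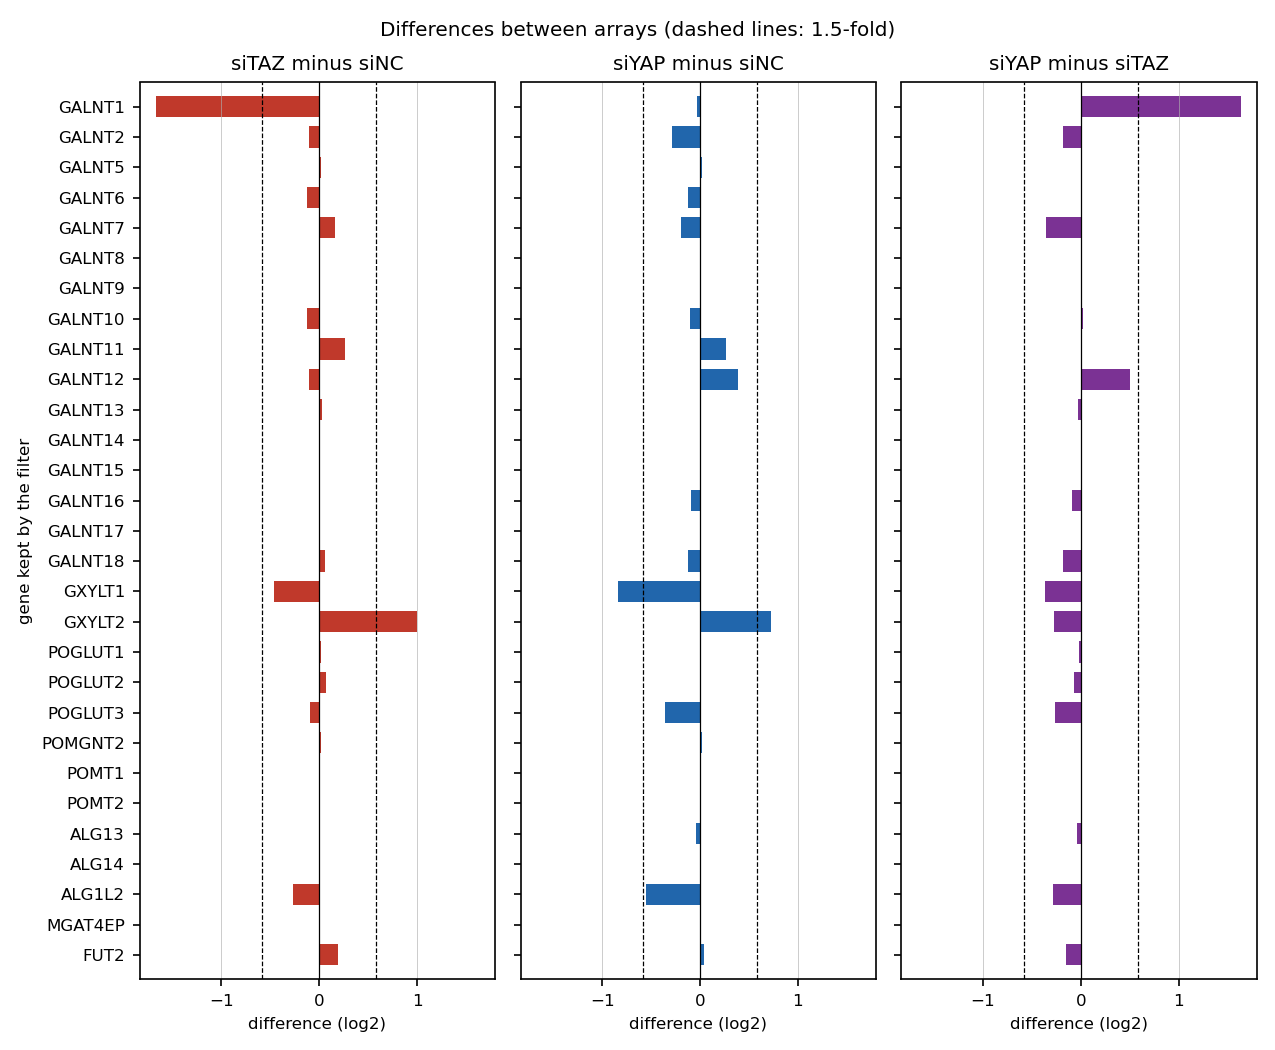
Difference in log2 level (x axis) for each of the 29 kept members (y axis), as siTAZ minus siNC, siYAP minus siNC and siYAP minus siTAZ, each from 1 array per group, with dashed lines at 1.5-fold. GALNT1 (-1.67) and GXYLT2 (1.005) pass the lines in the first panel, GXYLT1 (-0.83) and GXYLT2 (0.73) in the second, and GALNT1 (1.64) in the third.

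Counted over the set, siTAZ minus siNC had 1 of 29 kept members at least 1.5-fold lower (GALNT1) and 1 at least 1.5-fold higher (GXYLT2), beside 1.02% and 0.762% of all kept genes. Both were also past 2-fold, beside 0.241% lower and 0.0743% higher among all kept genes. In siYAP minus siNC, 1 of 29 was at least 1.5-fold lower (GXYLT1) and 1 higher (GXYLT2), beside 0.381% and 0.52%. At the 2-fold threshold that comparison had 0 members, beside 0.121% lower and 0.0743% higher. In siYAP minus siTAZ, 0 of 29 were at least 1.5-fold lower, beside 0.176% (0.0279% at 2-fold), and 1 was higher (GALNT1), beside 0.566%. GALNT1 was past 2-fold there too, beside 0.065% of all kept genes. Each of these counts is a single gene or none, too few to set the family apart from other genes.

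The median difference of the kept members was 0 in all 3 comparisons, as it was for all kept genes, and many tied values place it there in both. With siTAZ 8 members were lower, 11 higher and 10 identical to siNC, where all kept genes had 2341 lower, 3201 higher and 5226 identical. With siYAP 11 members were lower, 7 higher and 11 identical, where all kept genes had 2336 lower, 2911 higher and 5521 identical. The counts against siNC include ALG1L2 as lower and FUT2 as higher. ALG1L2 passed the filter only through siNC, and FUT2 only through siTAZ. In siYAP minus siTAZ 13 were lower, 3 higher (GALNT1, GALNT10 and GALNT12) and 13 identical, where all kept genes had 2822 lower, 2146 higher and 5800 identical. Within 0.1 of siNC lay 18 of the 29 members with siTAZ and 18 with siYAP, 62.1% in each, beside 71.6% and 76.2% of all kept genes. Within 0.3 lay 26 with siTAZ and 24 with siYAP, or 89.7% and 82.8%, beside 91.5% and 94.5%. These smaller shares of members were not tested.

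**Figure D3:**
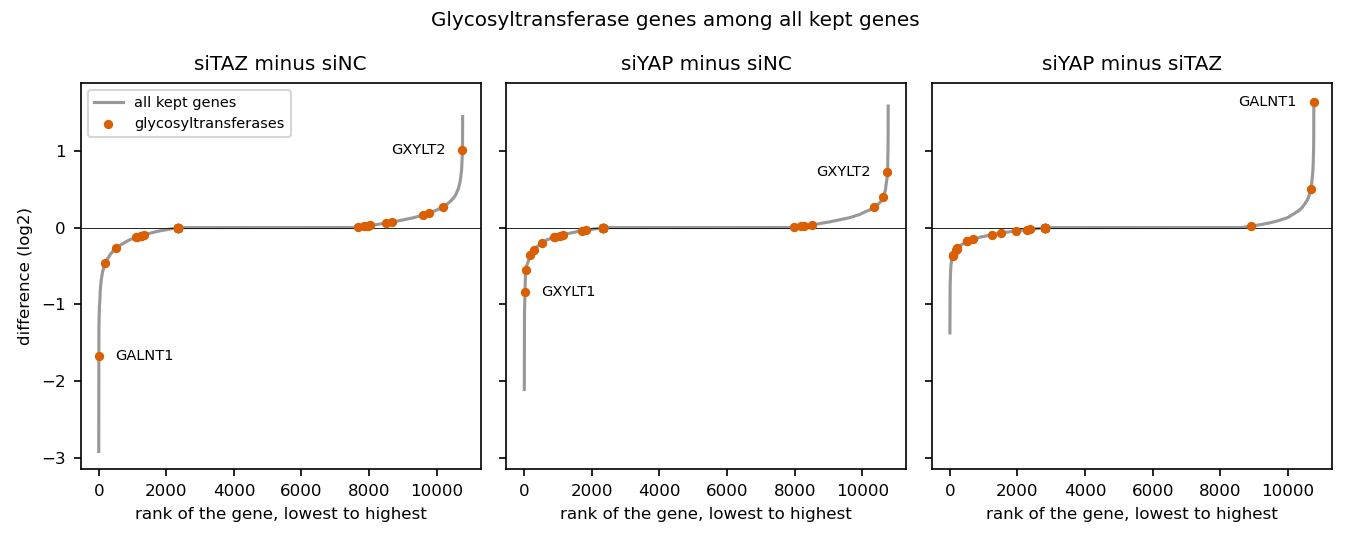
Differences in log2 level (y axis) of all 10768 kept genes in order of size (x axis, rank from lowest to highest; grey line), with the 29 kept glycosyltransferase genes as orange points, for each of 3 comparisons. GALNT1 lies at rank 3 from the lowest in siTAZ minus siNC and near the top in siYAP minus siTAZ, GXYLT2 near the top of both comparisons with siNC, and most other points on the flat middle part.

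Equal values need care in reading. In the whole set, 15 of 36 members had exactly the same value on the 3 arrays. Among kept genes these were 8 of 29 members, or 27.6%, beside 41.1% of all kept genes, a difference that was not tested. Of the 15, 11 shared all 3 values to the last deposited digit with other probe sets. GALNTL5, which encodes a family member without known transferase activity, was at 2.68 on each array together with 480 other probe sets. GALNT9-AS1 and B3GALT5-AS1, on different chromosomes, were both at 4.07 with 301 others each. Among kept members, GALNT15, GALNT17, GALNT8 and GALNT9 shared their values with 67, 58, 34 and 38 other probe sets. ALG14, POMT2, GALNT14 and MGAT4EP were identical on the 3 arrays without sharing a value. None of the 21 members that varied shared all 3 values with another probe set. Over the table, 23864 probe sets (44.5%) shared all 3 values with at least 1 other. Whether a gene with such a repeated value, or with equal values on a pair of arrays, was unchanged in the cells was not tested.

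Other genes of glycosylation were read from lists by function. Over 80 kept genes on 7 lists, siTAZ minus siNC had 2 genes at least 1.5-fold lower (NUS1 and POMK) and 1 higher (EXTL2), beside 1.02% and 0.762% of all kept genes. The comparison siYAP minus siNC had 1 lower (POMK) and 0 higher, beside 0.381% and 0.52%. The comparison siYAP minus siTAZ had 0 lower and 1 higher (NUS1), beside 0.176% and 0.566%. The median difference was 0 in each. NUS1, a subunit of the enzyme that makes the dolichol on which N-glycans are assembled, had 8.51 with siTAZ, 9.40 with siYAP and 9.47 with siNC. Like GALNT1, it was low on the siTAZ array alone, 1.95-fold below siNC, while siYAP was 1.06-fold below. DHDDS, its partner subunit, was 6.87 on every array. POMK, the kinase that phosphorylates O-mannose on dystroglycan, had 7.53 with siTAZ, 7.48 with siYAP and 8.48 with siNC. Both knockdown arrays were low, 1.93-fold and 2.01-fold below siNC. As for the GXYLT pair, both comparisons use the same single siNC array. EXTL2, which acts on the linker of heparan sulfate chains, had 5.55 with siTAZ, 5.15 with siYAP and 4.82 with siNC, 1.65-fold and 1.26-fold higher.

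By list, 22 of 39 genes of N-glycan assembly, transfer and trimming had a named probe set, and all 22 were kept. With siTAZ 13 of these were higher, 3 lower and 6 identical, and with siYAP 9 were higher, 4 lower and 9 identical. All kept genes, as above, also had more higher than lower values in both comparisons. MOGS, the glucosidase that trims the first glucose, was 0.46 and 0.22 above siNC with siTAZ and siYAP. Of the nucleotide sugar genes 21 of 28 had a named probe set, and all 21 were kept. GFPT1, which controls entry into the hexosamine pathway, had differences of -0.45 with siTAZ and -0.37 with siYAP. Notch and dystroglycan glycosylation had 14 of 22 genes with a named probe set, all kept, with medians of 0 against siNC. The receptor genes NOTCH1, NOTCH2, NOTCH3 and NOTCH4 were within 0.12 of siNC on both knockdown arrays. Glycosaminoglycan synthesis had 19 of 25 genes with a named probe set, of which 14 were kept. UGCG, which makes glucosylceramide, had differences of -0.23 with siTAZ and -0.50 with siYAP, and OGT, the enzyme of nuclear and cytoplasmic O-GlcNAc, had a difference of -0.36 with siTAZ and was equal to siNC with siYAP. The mucin list had 4 of 16 genes with a named probe set, C1GALT1C1, CD44, PODXL and SDC1, all of them kept. The MUC genes and C1GALT1 on it had no named probe set, so they were not measured here. C1GALT1C1, the chaperone of core O-glycan synthesis, was at 0.02 and -0.01, and SDC1, a proteoglycan, at 0.27 and 0.01. GPAA1, of GPI anchor attachment, was the 1 gene of 22 on its list with a named probe set. It was kept and was 0.23 higher on both arrays. The nucleotide sugar transporters had 0 of 17 genes with a named probe set.

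**Figure D4:**
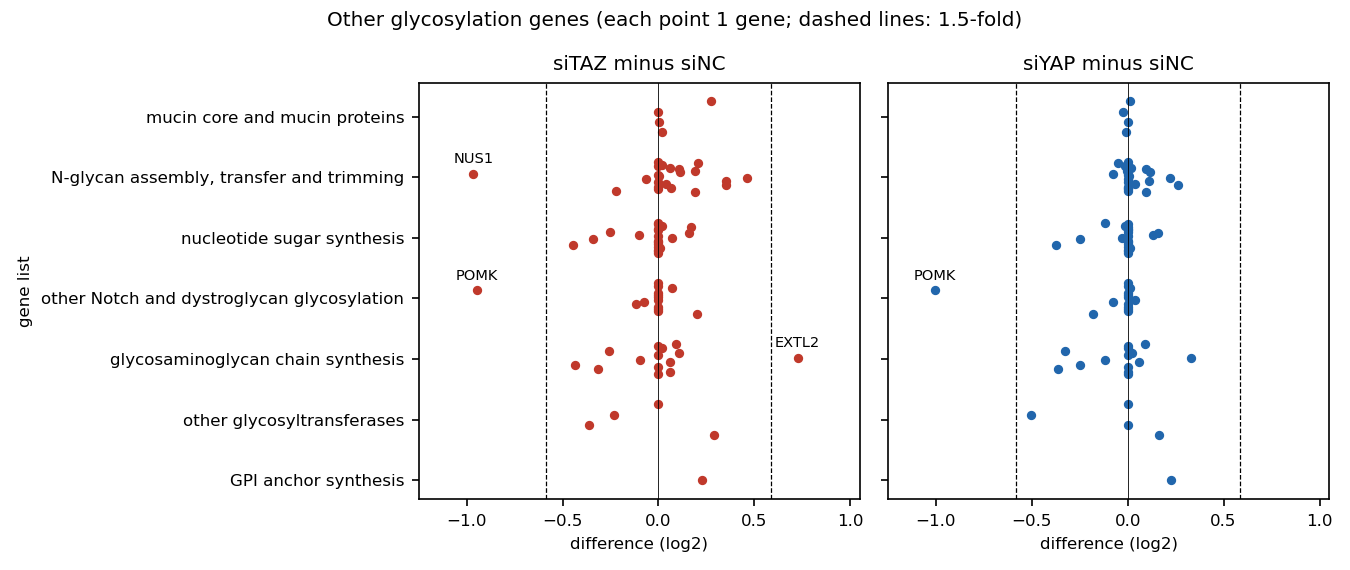
Difference in log2 level (x axis) of the 80 kept genes on 7 lists of other glycosylation genes (y axis, each point 1 gene) for siTAZ minus siNC (left) and siYAP minus siNC (right), with dashed lines at 1.5-fold. NUS1 (-0.97), POMK (-0.95) and EXTL2 (0.73) pass the lines on the left, and POMK (-1.005) on the right.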

How the data were processed

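Gene expression was measured on 3 Affymetrix arrays, 1 each for siTAZ, siYAP and siNC. The authors summarised the arrays with RMA, per the submitters' processing notes; the version of RMA and any genome build were not given in the sources used here. Values deposited by the authors were read as log2: the log2 scale of the deposited values was inferred from their range (0.96 to 13.5) and near-equal quartiles. Quantile normalization in RMA makes each level relative within its array, and the number of arrays limits the precision.

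Of 53617 probe sets, 16098 had 1 symbol in the platform annotation, 0 had several and 37519 had none. All 16098 Entrez identifiers matched the RefSeq table (GRCh38.p14), and 0 symbols changed. For 779 genes with over 1 probe set the brightest was used. Differences were counted at 1.5-fold and 2-fold, with no test, using Python 3.11.15 and pandas 2.3.3. The counting code was tested on simulated arrays with planted changes larger than 1.5-fold. That run checks the code alone and says nothing about the differences found here. Promoters came from RefSeq.

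Members, lists and thresholds were chosen with earlier results of these data known. Named genes were GALNT1, GXYLT2, members at 1.5-fold, the brightest and most different member of each role group, list genes at 1.5-fold, and knockdown checks (CCN2, ANKRD1 and AXL were 2.94-fold, 4.70-fold and 2.76-fold lower with siTAZ and 2.13-fold, 1.49-fold and 2.27-fold lower with siYAP). The remaining members and list genes in the text were picked with their values in view. The closing section gives the effect of 7 alternatives, which changed the filter (none, or the 75th percentile), the scaling (median shift, loess with span 0.4, or repeated quantile normalization), the averaging of probe sets, or the use of genes with identical values.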

Additional observations from a re-analysis of the deposited data

How the results depend on the processing

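All counts of members at 1.5-fold were the same under the 7 alternatives, which compared 16 to 36 members (19, 18 and 16 in siTAZ minus siNC, siYAP minus siNC and siYAP minus siTAZ where identical values were left out). The median differences of the members moved by at most 0.1, except siYAP minus siTAZ without genes of identical values, where the median was -0.12; that alternative removes the zeros by construction. GALNT1 ranged from -1.70 to -1.67 in siTAZ minus siNC, from -0.07 to -0.03 in siYAP minus siNC and from 1.62 to 1.65 in siYAP minus siTAZ. GXYLT2 ranged from 0.98 to 1.01 with siTAZ and from 0.71 to 0.73 with siYAP, and GXYLT1 from -0.49 to -0.47 and from -0.85 to -0.83. The counts of other glycosylation genes, recomputed as an addition chosen after seeing the data, were also the same, except that 0 were at least 1.5-fold higher with siTAZ under the filter at the 75th percentile, which removed EXTL2 as a dim gene. That filter also removed ALG1L2. No kept member crossed 1.5-fold under any alternative that left it in. These alternatives start from the same 3 arrays and say nothing about the spread between cultures. No paired analysis was possible because each group had 1 array.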
